A study of Mus musculus with 18 samples.

Results

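The 10 genes described here encode the core of bone morphogenetic protein (BMP) signalling in mouse bone marrow (BM): the ligands Bmp2, Bmp4, Bmp6 and Bmp7, the receptors Bmpr1a, Bmpr1b and Bmpr2, and the secreted antagonists Grem1, Nog and Chrdl1. They are a list of named genes, not a selection by a threshold on any value, and all 10 were found among the 20275 genes of a matrix of unique molecular identifier (UMI) counts from single cells. The cells came from BM of C57B6/J mice at embryonic day (E) 16.5, E18.5, postnatal day (P) 0 and adulthood, with no treatment or genetic change at any stage. Hematopoietic progenitors (HPs) had been sorted as Lin-Kit+ and stroma as CD45-Ter119-, each library held cells pooled from several mice, and perinatal marrow came from the whole skeleton except the head whereas adult marrow came from tibias, femurs, pelvis and spine. There was 1 stromal library per stage, 2 HP libraries at E16.5 and 1 HP library at each later stage, so the stromal comparisons have no replicate check and no test was possible for them. The site sampled and the stage cannot be told apart in any comparison of adult with perinatal marrow.

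BMP ligands are secreted dimers of the TGF-beta superfamily. They bring together type I receptors, to which Bmpr1a and Bmpr1b belong, and type II receptors such as Bmpr2, and the receptor complex phosphorylates Smad proteins that enter the nucleus and switch on targets such as the Id genes and Smad6. Gremlin 1, noggin and chordin-like 1 bind ligands outside the cell and keep them from the receptors, and in the skeleton the balance of ligand and antagonist governs cartilage growth, joint formation and bone formation.

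The 9 libraries held 56201 cells, from 560 to 14084 per library, with 13974733 to 194892476 UMIs per library and a median of 6747 to 23291.5 UMIs per cell. Levels are given as counts per 1e6 UMIs (CPM) of the summed UMIs of a library or cluster, with exact Poisson 95% intervals that cover counting error only, and a difference between stromal libraries is counted when it reached 2-fold with at least 20 UMIs in the higher library. Cells carry cluster codes from the authors' annotation, of which 65 stromal and 73 HP codes held at least 50 cells, and the codes are described here by their leading marker genes. The summed level of the blood cell marker list was 1.57 to 2.11 CPM in the stromal libraries. Adult stroma had the erythroid list at 148.7 CPM, against 5.17 CPM at P0, and the monocyte or macrophage list at 80.6 CPM, against 13.6 CPM at P0. In adult stroma a single marker gave 85.3 CPM of the erythroid list, and a single marker gave 67.7 CPM of the monocyte or macrophage list. The part of these lists in the adult levels was not tested. The summed level of the fibroblast marker list was 3.16 to 7.23 CPM in the HP libraries. The CAR marker list was at 208.5 CPM in adult HPs, but its highest marker alone gave 194.4 CPM of this, so the sum is mostly that of 1 gene. Separately, 56 adult HP cells carry the code Stroma, with Cxcl12, Prg4 and Col2a1 among their leading genes. The P0 HP code Mast4, of 274 cells, was led by Col3a1, Col1a1 and Col2a1. In all, 2472 cells had a barcode that occurred in more than 1 library, most of them among HPs. They made up 59.6% of E16.5 HP replicate 1, 13.2% of adult HPs, 12.2% of E18.5 HPs and 5.06% of P0 HPs, against 1.34% to 1.67% of each stromal library and 1.60% of E16.5 HP replicate 2. The 330 barcodes that adult HPs shared with E16.5 HP replicate 1 had a median of 668 UMIs in the adult library and 30840 in the E16.5 library, so the HP library levels of Bmp2, Bmp4, Bmp7, Bmpr1a and Bmpr2 are also given without such cells for the 3 libraries that held the most of them.

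In stroma, each of the 3 antagonists was more than 3-fold higher in the adult library than at P0, as no other member was. Bmpr1a and Bmpr2 had similar levels at all 4 stages. Grem1, which encodes gremlin 1, was at 11.7 CPM in the E16.5 library (95% interval 11.0 to 12.3), 10.8 CPM in E18.5 stroma (10.2 to 11.5), 12.9 CPM in P0 stroma (12.4 to 13.4) and 51.1 CPM in adult stroma (49.7 to 52.6). Nog, which encodes noggin, was at 20.5 and 23.0 CPM before birth, 9.93 CPM (9.50 to 10.4) at P0 and 38.7 CPM (37.4 to 40.0) in the adult. Chrdl1, which encodes chordin-like 1, was at 15.9 and 22.9 CPM before birth, 14.4 CPM (13.9 to 14.9) at P0 and 51.7 CPM (50.3 to 53.2) in the adult. For each antagonist the adult library was the highest of the 4, and its interval did not overlap that of any perinatal library. The ratios of adult to P0 were 3.98 for Grem1, 3.89 for Nog and 3.59 for Chrdl1. P0 was, however, the stage with the lowest level of Nog and of Chrdl1. Over E16.5 and over E18.5 the adult level of Nog did not reach 2-fold. Those of Grem1, Chrdl1 and Bmp4 did, with Bmp4 at 17.5 and 20.3 CPM before birth and 56.2 CPM in the adult. Bmp6 and Bmp7 also passed 2-fold over E16.5. The contrast of all 3 antagonists with the ligands therefore holds against P0 only.

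The ligands differed less between P0 and the adult. Bmp2, a ligand with a known part in cartilage maturation and fracture repair, was at 57.8, 78.3, 80.5 and 51.2 CPM in the libraries from E16.5 to the adult. Bmp4 was at 17.5, 20.3, 33.2 and 56.2 CPM in the same order, and Bmp6, best known as the signal by which liver endothelium controls hepcidin and iron, was at 10.6, 14.7, 17.4 and 28.4 CPM. Bmp7, a ligand required for kidney and eye development, was at 11.4, 16.5, 15.5 and 29.7 CPM. Bmp4, Bmp6 and Bmp7 were therefore highest in the adult library, at 1.69, 1.63 and 1.92 times their P0 levels, and Bmp2 was the only ligand that was lower there, at 0.636 times. None of the 4 ratios of adult to P0 reached 2-fold.

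Among the receptors, Bmpr1a, the type I receptor of broad expression, was at 58.2, 62.5, 62.3 and 62.9 CPM from E16.5 to the adult. Bmpr2, the shared type II receptor, was at 60.8, 67.6, 69.6 and 77.0 CPM. Bmpr1b, a type I receptor known for its role in cartilage condensation, was at 10.8, 8.87, 10.1 and 5.00 CPM (4.55 to 5.47 in the adult), and it was the member that was lower by 2-fold in the adult than at P0, with a ratio of 0.495. That ratio lies just past the boundary, and no other ratio of adult to P0 lay between 2-fold and 3-fold in either direction.

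**Figure D1:**
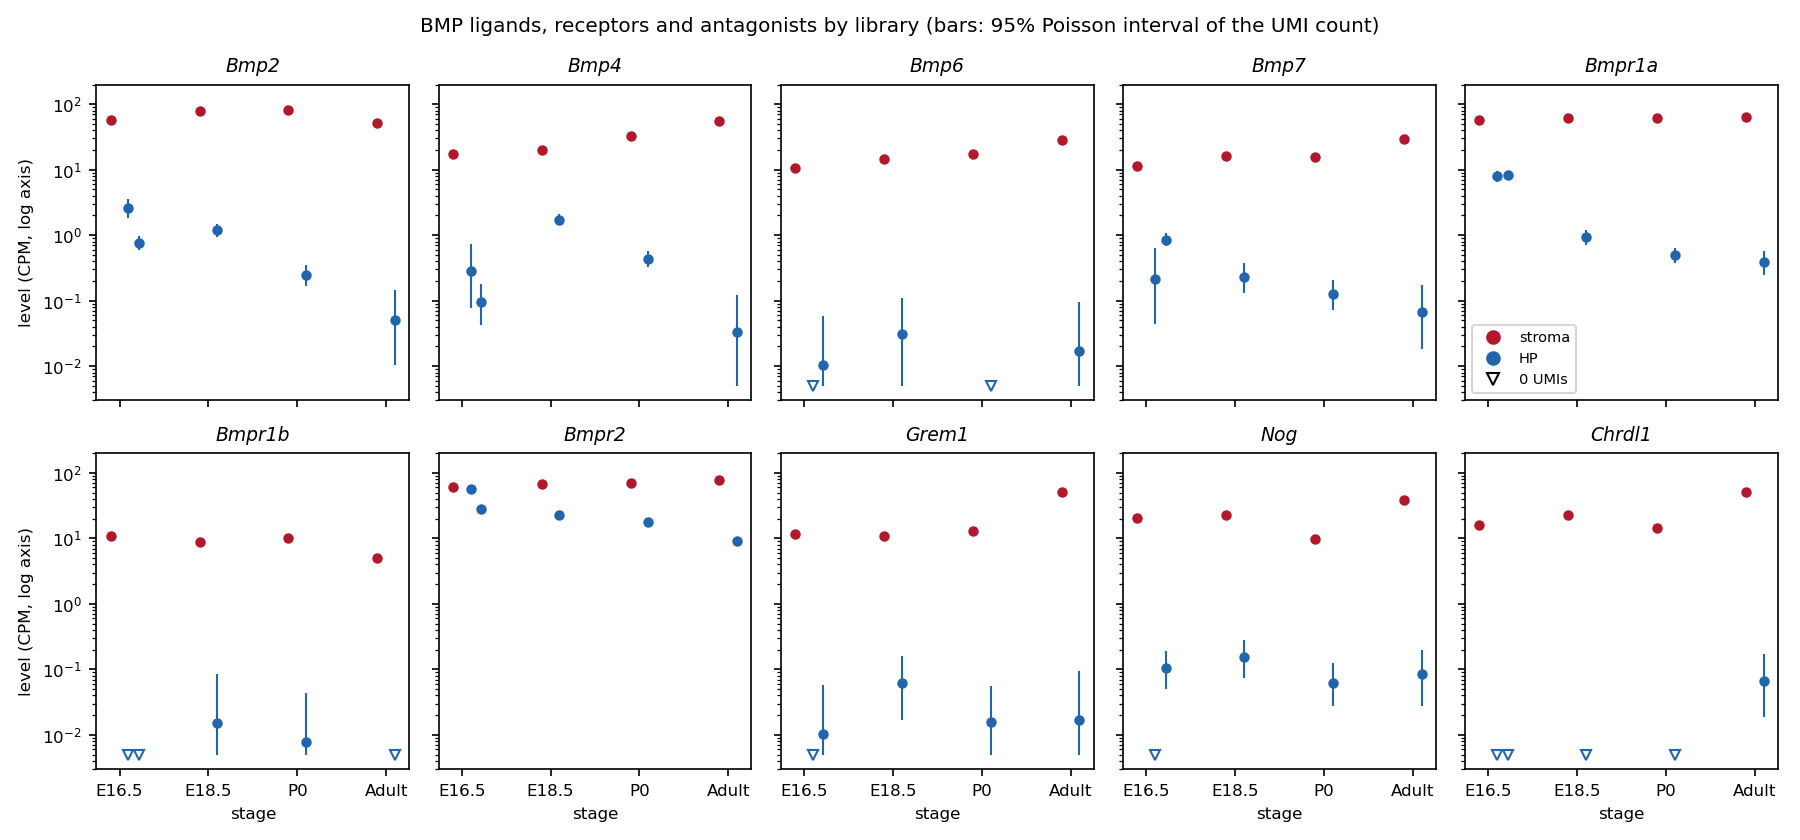
Level of each of the 10 genes (CPM, log axis) by stage in the stromal libraries (red) and the HP libraries (blue), with 95% Poisson intervals as bars and open triangles for libraries with 0 UMIs. Grem1, Nog and Chrdl1 are highest in adult stroma and close to 0 in every HP library, whereas Bmpr2 is the gene whose HP levels come nearest to its stromal levels.

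Counted by the 2-fold rule, 0 of the 10 genes differed between the E16.5 and E18.5 stromal libraries, where 8.41% of 16070 genes did so in either direction, and the member ratios ran from 0.824 for Bmpr1b to 1.45 for Bmp7. Between E18.5 and P0, 1 gene of 10 was lower, namely Nog with a ratio of 0.432, against 0.700% of 16705 genes that were lower and 5.91% in either direction. Chrdl1 stood at 0.629 and Bmp4 at 1.64 times the E18.5 level. Between P0 and the adult, 3 of 10 genes were higher, against 18.2% of 17034 genes, and 1 was lower, against 13.1%, which is 4 of 10 in either direction against 31.4%. The counts of adult over P0 are close to the background shares and are no result about the list as a whole. The 3 higher genes are the antagonists and the lower gene is Bmpr1b. The median log2 ratio of adult to P0 was 0.73 over the 10 genes and 0.16 over all genes compared.

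In the adult, Grem1, Chrdl1, Bmp4 and Bmp6 had their highest level in the same cluster. The code CARs, named by the authors for Cxcl12-abundant reticular cells, the adipogenic and niche-forming mesenchymal stroma of adult marrow, held 359 cells and 3.27% of the adult library's UMIs. Its defining markers were present, with Cxcl12 at 20240 CPM, Adipoq at 2177 CPM and Lepr at 793.5 CPM. Of the adult library's UMIs of each gene, this cluster held 43.9% for Grem1, 31.2% for Chrdl1, 30.04% for Bmp6 and 17.0% for Bmp4. For Bmp4 the fibroblast codes together held more, 65.0% of the library's UMIs, and F10 alone held 36.0%. It also held transcripts of cartilage, with Prg4 at 884.9 CPM and Col2a1 at 1478 CPM, against 38250 CPM for Prg4 in the articular code F9 and 65490 CPM for Col2a1 in the chondrocyte code C10, and their part in the levels of the cluster was not tested.

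Grem1 was at 687 CPM (657 to 717) in CARs, 164 CPM (157 to 171) in F9, a code with the articular cartilage markers Prg4 and Cytl1, and 78.2 CPM (65.97 to 92.0) in SECs, the sinusoidal endothelial code. CARs and F9 held the same count of 2060 Grem1 UMIs each, which together was most of the 4695 in the adult library, and C10, a chondrocyte code with Matn1 and Ihh, was at 0.654 CPM. After each cell was thinned to 1000 UMIs, 41.2% of CARs (36.1% to 46.5%) had a Grem1 UMI (80.2% before thinning), against 0 of 389 AECs, the arterial endothelial code, which allows a share of up to 0.771%. Such a limit holds for cells with a UMI at this depth and not for cells that express the gene. The median UMI counts of the 2 codes were 7185 and 4520.5. In SECs, all 145 Grem1 UMIs came from 12 of 194 cells, with up to 58 in a cell. Those 12 cells also had Cxcl12 at 1921 CPM, Adipoq at 154 CPM and Prg4 at 16251 CPM, against 127, 6.15 and 2492 CPM in the other 182 SECs, so the Grem1 level of this code went with transcripts of the 2 codes where the gene was highest. The part of mixed droplets in it was not tested.

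Chrdl1 was at 494 CPM (469 to 519) in CARs and next at 85.3 CPM (80.5 to 90.3) in C10, followed by C11 at 58.4 and C9 at 52.5 CPM, whose intervals overlapped. Thinned to 1000 UMIs, 38.2% of CARs (33.1% to 43.4%) had a Chrdl1 UMI, against 80.2% unthinned and 0 of 389 AECs thinned.

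Bmp4 was at 292 CPM (273 to 312) in CARs, then 171 CPM (163 to 178) in F10, a fibroblast code led by Npy, Ptpro and Angptl7, 134 CPM in F12, a tendon-like code with Kera and Coch, and 130 CPM in P1, a skeletal muscle code. The intervals of F12 and P1 overlapped, and C10 was the lowest code, at 1.45 CPM. Thinned to 1000 UMIs, 22.8% of CARs (18.6% to 27.5%) had a Bmp4 UMI, 63.0% unthinned, against 0 of 376 cells of C10, which allows up to 0.798% at a median of 36462 UMIs per cell.

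Bmp6 was at 261 CPM (243 to 280) in CARs, 100 CPM (79.3 to 125) in P1 and 82.7 CPM (71.6 to 95.04) in AECs, and the last 2 intervals overlapped. Thinned, 26.5% of CARs (22.0% to 31.3%) had a Bmp6 UMI, 76.0% unthinned, against 0.175% of C9, a chondrocyte code with a median of 19966 UMIs. No Bmpr1b UMI was counted among the 3000474 UMIs of CARs, which allows a level of up to 1.00 CPM by the floor of 3 UMIs (exact upper limit 1.23 CPM), whereas the cluster had Bmpr1a at 67.7 CPM and Bmpr2 at 101 CPM. In CARs, 301 of 359 cells (83.8%) held at least 1 UMI of a ligand and at least 1 of an antagonist, and 251 held both Grem1 and Chrdl1. Ligand UMIs were found in 90.9% of the CARs with an antagonist UMI and in 35.7% of the other 28. In F9 the number with ligand and antagonist was 269 of 916 (29.4%), and ligand UMIs were found in 62.3% of the cells with an antagonist UMI and 65.9% of the others. These counts are not corrected for depth.

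**Figure D2:**
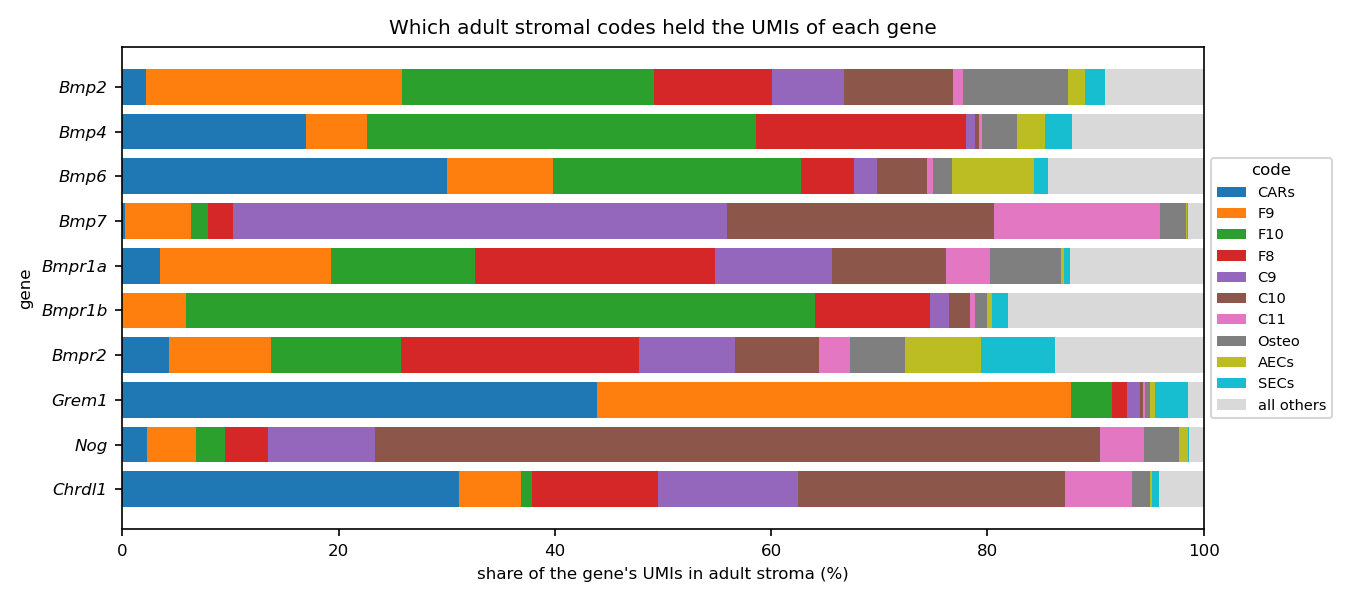
Percent of each gene's UMIs in the adult stromal library that came from each cluster code, as stacked bars. Grem1 divides mainly between CARs and the articular code F9 with 43.9% each, C10 holds 67.0% of Nog, and the chondrocyte codes C9, C10 and C11 hold most of Bmp7.

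The 3 members that were highest in adult CARs and had a promoter entry in the RefSeq table used here (GRCm38.p6) are Grem1, Bmp4 and Bmp6, and the 250 bases before their RefSeq gene starts are printed to show the DNA at these starts. Grem1 is a 2-exon gene on the minus strand at chr2:113746164-113758646 and Bmp4 a 4-exon gene on the minus strand at chr14:46383520-46390669, by GENCODE vM21 on GRCm38. Bmp6, with 7 exons, lies on the plus strand at chr13:38345107-38500302, and its RefSeq start falls inside that gene model. The printed windows are chr2:113758649-113758898, chr14:46390670-46390919 and chr13:38345466-38345715. Capitals mark GGCGCC, a palindrome known as a binding sequence of BMP-activated Smad proteins.
Grem1: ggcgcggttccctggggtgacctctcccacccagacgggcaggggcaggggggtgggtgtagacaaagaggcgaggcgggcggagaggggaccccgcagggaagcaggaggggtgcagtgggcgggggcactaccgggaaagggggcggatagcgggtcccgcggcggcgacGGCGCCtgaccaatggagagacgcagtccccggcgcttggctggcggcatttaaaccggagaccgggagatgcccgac
Bmp4: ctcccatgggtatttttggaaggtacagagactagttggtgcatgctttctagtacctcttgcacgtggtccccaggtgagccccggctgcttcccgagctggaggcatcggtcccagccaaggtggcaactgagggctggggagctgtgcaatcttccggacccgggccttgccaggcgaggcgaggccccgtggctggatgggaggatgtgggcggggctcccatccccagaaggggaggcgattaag
Bmp6: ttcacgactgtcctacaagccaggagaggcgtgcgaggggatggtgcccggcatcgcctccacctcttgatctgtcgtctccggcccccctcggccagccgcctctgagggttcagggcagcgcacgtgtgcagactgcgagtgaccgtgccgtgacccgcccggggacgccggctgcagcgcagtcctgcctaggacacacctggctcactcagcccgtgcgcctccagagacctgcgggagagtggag
The motif occurred in the Grem1 window and in neither of the other 2. Of the 6 members with an entry, 3 (Bmpr1a, Bmpr2 and Grem1) had it in the 300 bases from 250 before to 50 after the start, where 3898 of 32851 promoters (11.87%) had it. The first count is of genes and the second of promoters, and Bmpr1b has more than 1 promoter entry, none with the motif. A match is a description of the letters only.

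The remaining adult antagonist, Nog, had another pattern. It was at 173 CPM (166 to 180) in C10, which held 67.0% of its adult UMIs, then at 30.1 CPM in C9, 28.8 CPM in C11 and 27.3 CPM in CARs, whose intervals overlapped. C10 carried the growth plate markers Ihh at 137.5 CPM, Pth1r at 1682 CPM and Matn1 at 462.4 CPM. Thinned to 1000 UMIs, 14.1% of C10 cells (10.7% to 18.0%) had a Nog UMI, 81.6% unthinned, against 0 of 389 AECs thinned. Bmp7 was also a gene of the chondrocyte codes in the adult, at 106 CPM (101 to 113) in C9, 83.4 CPM (75.6 to 91.8) in C11 and 49.0 CPM (45.3 to 52.8) in C10, with no overlap between these intervals. It was at or below 2.33 CPM in CARs, AECs and SECs. Bmp2 was spread over more codes, at 100 CPM (94.5 to 107) in the fibroblast code F10, 88.9 CPM in F9, 80.8 CPM in Osteo, the osteolineage code, and 76.9 CPM in P4, the pericyte and smooth muscle code.

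Before birth and at P0 most UMIs of the ligands and antagonists except Bmp4 were in chondrocyte codes. These codes held 53.6%, 70.3%, 57.5% and 46.9% of all UMIs of the stromal libraries from E16.5 to the adult. For Grem1 at P0 the level in chondrocyte codes, given below, was close to that of the whole library. Its share of UMIs in them was therefore close to that of all UMIs. Bmp2 was highest in C3 at E16.5, a code with the joint marker Gdf5 (206 CPM, next C5 at 120), in C7 at E18.5 (242 CPM, next C2i at 111) and in C8 and C2i at P0 (160 and 157 CPM, overlapping). Codes of the chondrocyte class held 88.6%, 88.3%, 83.5% and 41.4% of Bmp2 UMIs in the 4 libraries in order of stage. Bmp7 was highest in C5, the code with the hypertrophic markers Col10a1, Ihh and Panx3, at each of the 3 stages (29.0, 30.2 and 36.9 CPM), and the chondrocyte share of its UMIs was 74.9%, 82.4%, 77.4% and 91.9% from E16.5 to the adult. The chondrocyte share of Bmp7 was above that of all UMIs at every stage, and that of Bmp2 was above it at every stage except the adult.

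Bmp6 was highest in C2 at E16.5 (32.3 CPM), in C2i and C2ii at E18.5 (46.0 and 38.3 CPM, overlapping) and in C2ii at P0 (71.4 CPM). Its chondrocyte share was 86.2%, 82.8%, 71.2% and 17.2% in order of stage. Fibroblast codes held the largest class share of Bmp4 UMIs at every stage, 46.9%, 49.8%, 46.9% and 65.0% from E16.5 to the adult, where fibroblast codes held 20.8%, 21.9%, 22.5% and 36.3% of all UMIs. The code F2 was classed as fibroblast at E18.5 but as osteolineage at E16.5 and P0. The E18.5 shares are therefore of an unlike set of codes and were not recomputed without it. Bmp4 was highest in F1 at E16.5 (47.4 CPM, overlapping ECs, the endothelial code, at 39.1) and in F3i at E18.5 (66.2 CPM) and P0 (91.1 CPM, 86.2 to 96.3).

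For the antagonists, C5 was the leading perinatal code for Nog (54.4, 81.4 and 26.9 CPM in order of stage) and for Chrdl1 (61.2, 88.8 and 35.9 CPM). Without cells at or above the 95th percentile of UMIs, C4 was the highest Nog code at E16.5, at 40.9 CPM. At P0 the unnamed code UD4 was at 39.7 CPM of Nog, with an interval that overlapped that of C5. Grem1 had no single perinatal site, since its highest codes were UD1 (40.6 CPM) and C2 (30.6 CPM, overlapping) at E16.5, F2 (28.1 CPM) at E18.5, and the tendon code F5 (55.3 CPM, 49.1 to 62.2) and UD4 (50.7 CPM) at P0. The summed level of the CAR marker list was 104, 116 and 155 CPM in the stromal libraries from E16.5 to P0 and 1420 CPM in the adult, and no perinatal code of at least 50 cells was classed with CARs. Less RNA per cell and fewer cells of a type cannot be told apart in a whole-library level.

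The receptors divided the stroma in another way. Bmpr2 was highest in endothelial codes at every stage, at 102, 145 and 176 CPM (160 to 193 at P0) in the perinatal ECs, and at 261 CPM (238 to 285) in SECs and 206 CPM (188 to 225) in AECs in the adult. Bmpr1a was lowest in the same cells, at 12.6, 17.0 and 17.2 CPM in ECs and at 16.7 CPM in SECs and 7.90 CPM in AECs. Its other adult codes included P4 at 91.9 CPM and F8, a fibroblast code, at 87.9 CPM. ECs held 71 cells at E16.5 and 94 at E18.5, so these levels rest on small codes, and the E16.5 interval of Bmpr2 (82.1 to 126) overlapped that of UD1 at 82.8 CPM. Among P0 cells of at least 1000 UMIs, the unnamed code UD2 was above ECs in Bmpr2, at 186 CPM. Bmpr1b had 68.5% of its UMIs in chondrocyte codes at E16.5, then 78.6% and 64.6% at the next stages. These shares were not far above the shares of all UMIs in those codes, given above. Its highest perinatal codes were C4 at E16.5 (18.1 CPM), C2i at E18.5 (15.3 CPM) and the tendon code F5 at P0 (13.8 CPM). At P0, 14 of 19 codes, F5 included, had intervals that reached that of F5, so no clear site stood out. By contrast, chondrocyte codes held 10.0% of Bmpr1b UMIs in the adult and fibroblast codes held 85.6%. In the adult it was at 24.5 CPM (21.6 to 27.6) in F10 and 24.7 CPM (18.7 to 31.9) in F12, which did not differ beyond counting error.

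**Figure D3:**
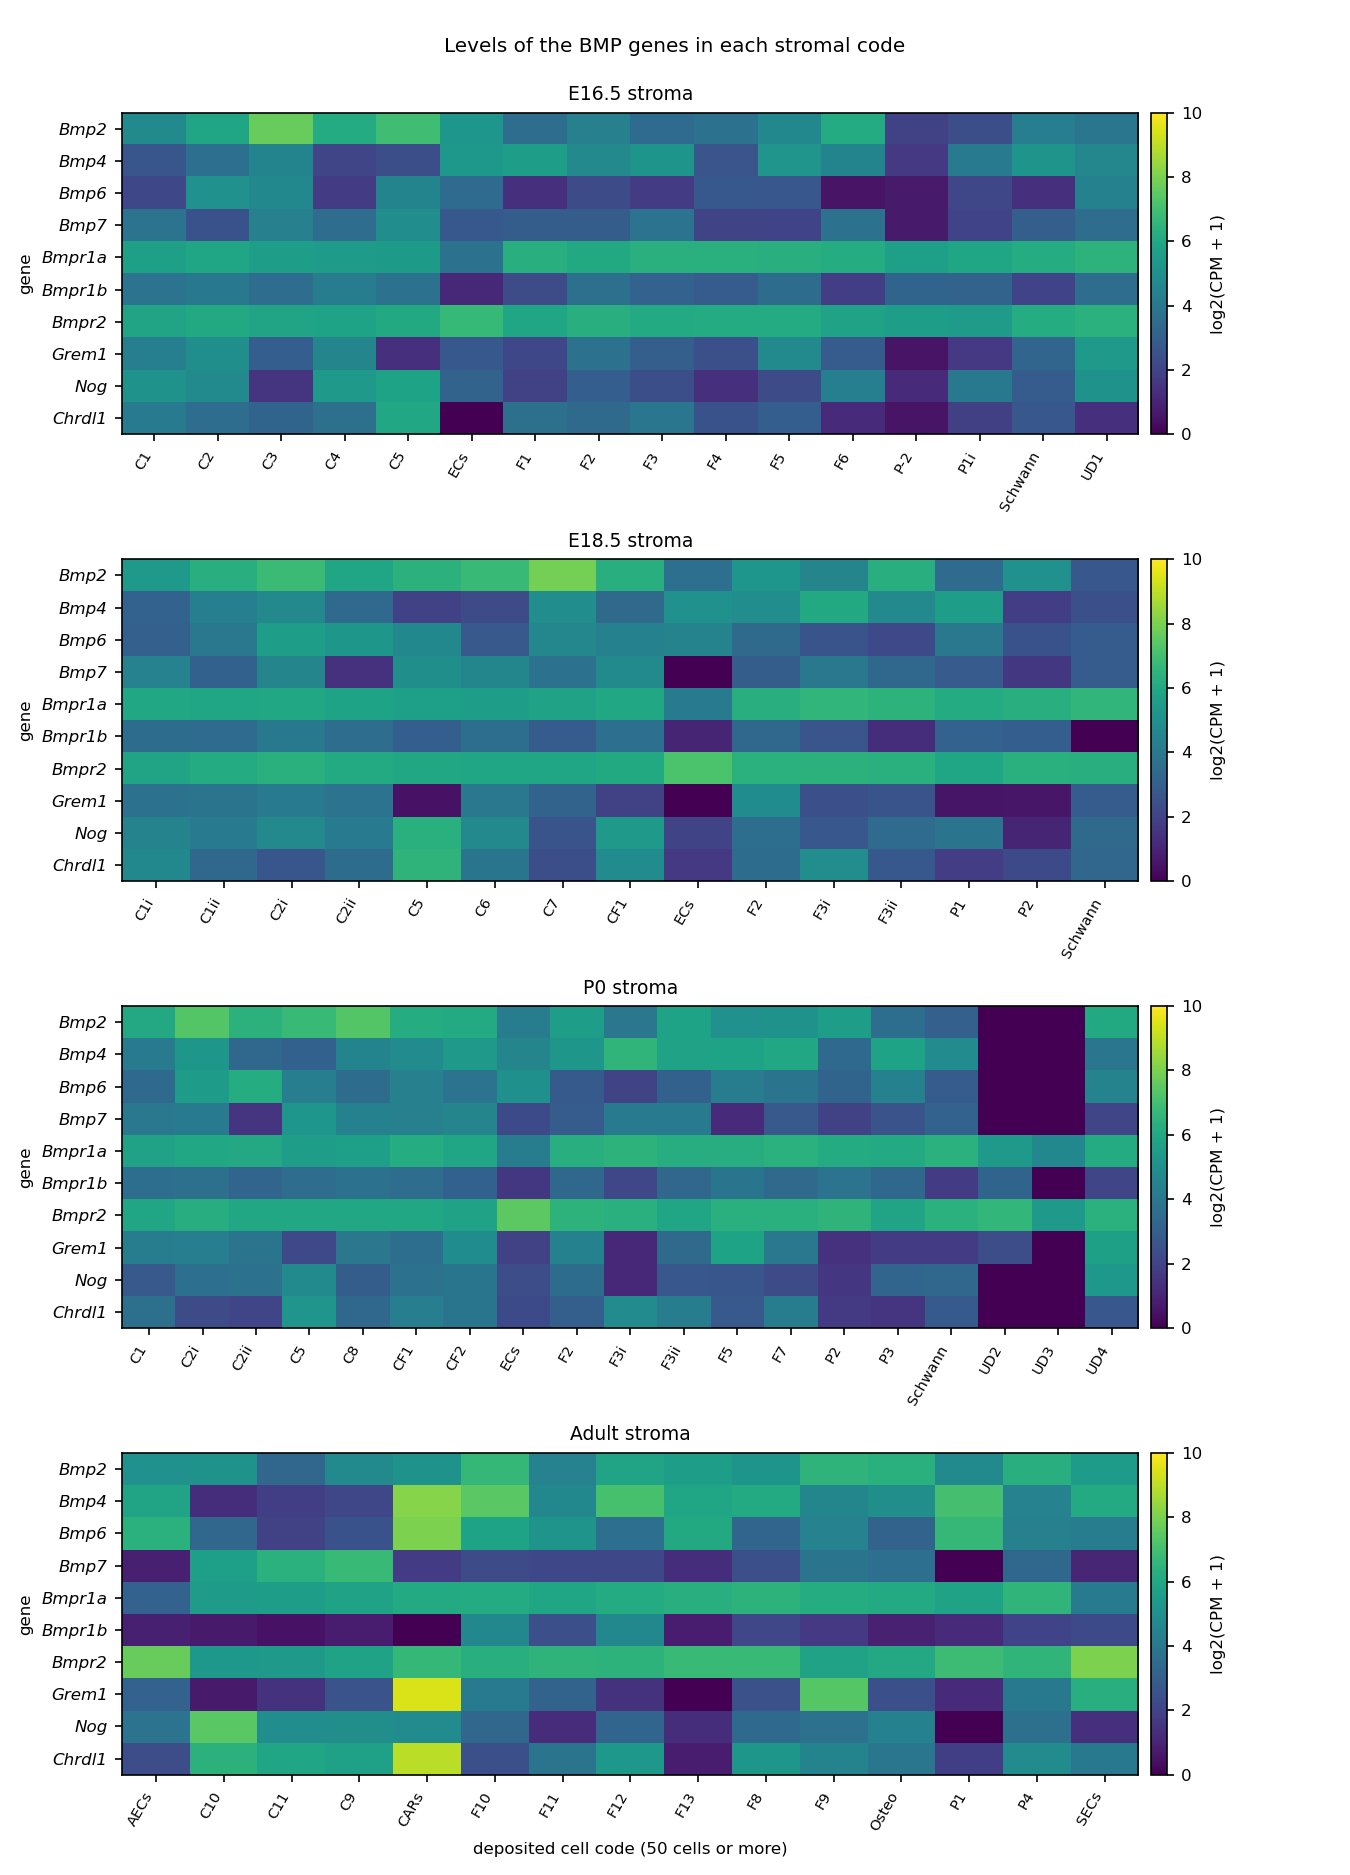
Heat maps of log2(CPM + 1) of the 10 genes in every stromal code of at least 50 cells, 1 panel per stage. CARs in the adult panel hold the highest Grem1, Chrdl1, Bmp4 and Bmp6, endothelial codes hold the highest Bmpr2 and low Bmpr1a at each stage, and chondrocyte codes hold Bmp7 throughout.

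To see whether the difference between adult and P0 stroma was found within a kind of cell, codes were summed into 6 classes present at both stages by their markers. The codes of a class are not the same at the 2 stages, and CARs have no P0 counterpart and are in none of the classes. In chondrocyte codes (C9, C10, C11 and F9 in the adult, C1, C2i, C2ii, C5 and C8 at P0), Bmp7 was at 20.9 CPM at P0 and 58.3 in the adult, Grem1 at 12.8 and 49.6, Nog at 12.6 and 70.5 and Chrdl1 at 15.4 and 54.7. These 4 genes were higher by 2.79-fold to 5.58-fold, whereas Bmp2 (117 and 45.2 CPM), Bmp4, Bmp6 and Bmpr1b were lower, with ratios of 0.387, 0.482, 0.482 and 0.0940. The 8 of 10 members past 2-fold stood against 27.5% of 15162 genes. The adult Grem1 of this class lay in F9, since C9, C10 and C11 were each at or below 4.94 CPM, under the 12.8 CPM of the class at P0. F9 carries an F code like the adult fibroblast codes and was placed in this class by its articular chondrocyte markers. The direction for Grem1 therefore depends on that placement.

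In the fibroblast codes (F8, F10, F11, F12 and F13 in the adult, F3i, F3ii, F5 and F7 at P0), Bmp6 and Nog were higher in the adult, 2.91-fold and 2.34-fold, and Bmp7 was lower with a ratio of 0.408, which is 3 members against 32.2% of 14513 genes. In the osteolineage codes (Osteo and F2), Bmpr1b and Grem1 were lower, with ratios of 0.0986 and 0.225, against 25.3% of 11812 genes past 2-fold. In the endothelial codes (AECs with SECs, and ECs), Bmp2, Bmp4, Grem1 and Chrdl1 were higher, by 2.15-fold, 2.76-fold, 13.4-fold and 2.48-fold, against 25.1% of 10581 genes. The endothelial Grem1 ratio rests on 7 UMIs at P0 and on the 12 SECs described above. Within chondrocyte codes Nog and Chrdl1 were higher in the adult, Grem1 was higher only with F9 in the class, and within osteolineage codes Grem1 was lower.

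In the pericyte and smooth muscle codes (P4 and P2), Bmp4, Bmp6, Grem1, Nog and Chrdl1 were higher by 2.10-fold to 11.8-fold and Bmpr1b was lower at 0.234, which is 6 members against 24.2% of 9421 genes. In the skeletal muscle codes (P1 and P3), Bmp2, Bmp4, Bmp6 and Bmpr2 were higher by 2.03-fold to 5.04-fold and Bmpr1b was lower at 0.137, from very few adult UMIs. Nog was at 8.61 CPM in P0 muscle and had 0 UMIs in adult muscle. The floor of 3 UMIs gives a ratio of at most 0.448, but the exact upper limit of 4.74 CPM for the adult would not reach 2-fold. With Nog counted, 6 members stood against 34.5% of 8824 genes. Bmpr1b was lower by over 2-fold in 4 of the 6 classes (chondrocyte, osteolineage, pericyte and muscle), and Bmpr1a did not reach 2-fold in any of them. In pericyte and muscle codes the adult Bmpr1b level rests on few UMIs, and its exact upper limit would not reach 2-fold. With the 5 classes found at all 4 stages weighted equally, the adult and P0 levels were 22.7 and 6.94 CPM for Grem1, 19.7 and 6.15 for Nog, 23.2 and 8.59 for Chrdl1 and 3.85 and 8.78 for Bmpr1b, so the 4 differences of the whole library were also present with this weighting. Osteolineage codes and CARs are not among these 5 classes, and the adult Grem1 mean rests mostly on the chondrocyte class at 49.6 CPM, which includes F9, and the endothelial class at 38.5 CPM, of whose SECs 12 had a Grem1 UMI. Bmp6 also passed 2-fold with it, at 42.8 and 18.2 CPM. With CARs and F9 left out of the adult library, however, Grem1 was lower than at P0 by 0.77 on the log2 scale (log2 ratio -0.77).

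**Figure D4:**
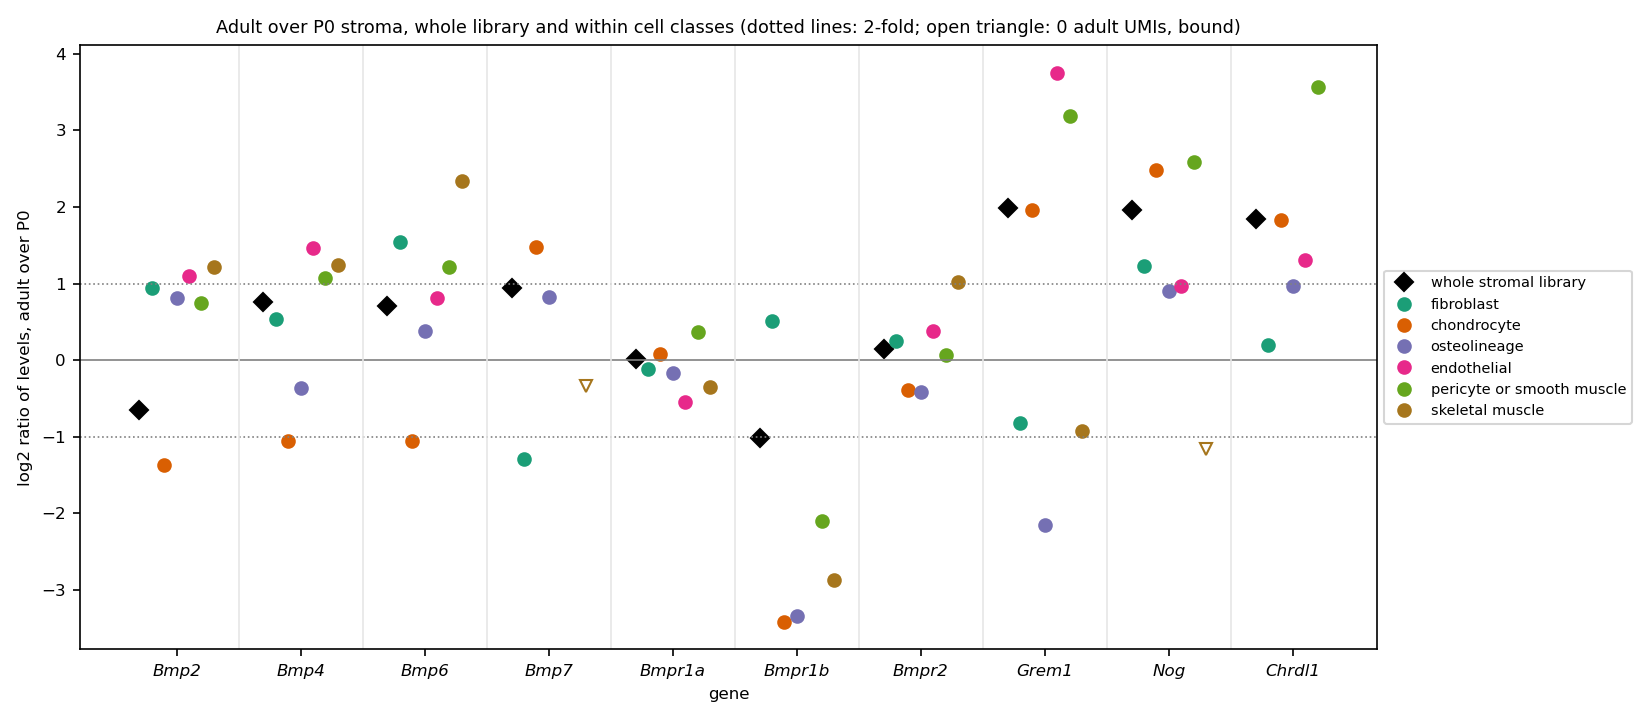
Log2 ratio of adult to P0 level of each gene in the whole stromal library (black diamonds) and within 6 classes of codes (coloured circles), with dotted lines at 2-fold and open triangles for bounds from 0 adult UMIs. The diamonds of Grem1, Nog and Chrdl1 lie near a log2 ratio of 2, and class values of Grem1 run from -2.15 in osteolineage to 3.75 in endothelial codes.

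Other genes of the pathway were read from a list of 46 further ligands, receptors, modulators, Smad proteins and targets, of which 43 were measured. Between P0 and adult stroma, 12 of 42 that could be compared were higher and 3 were lower by 2-fold, against 18.2% and 13.1% of all genes. Among antagonists and modulators, 5 of 13 were higher and 1 lower. Nbl1, which encodes another secreted BMP antagonist, was at 85.4 CPM at P0 and 652 CPM in the adult, and Sostdc1, an inhibitor of BMP and Wnt signalling, was at 14.2 and 0.99 CPM. Of the ligands, Bmp8a and Gdf6 were higher and Bmp3 and Gdf5 lower, and of the receptors only Eng, an endothelial co-receptor, was higher, with 29.2 and 67.6 CPM. The summed endothelial marker list was at 61.5 CPM in P0 stroma and 276 CPM in adult stroma, and its part in the Eng level was not tested. None of the 6 signal transducers reached 2-fold.

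Among target genes, 4 of 10 were higher in adult stroma, with Msx1 at 3.12 and 45.5 CPM, Dlx5 at 9.09 and 57.3 CPM, Id2 at 114 and 336 CPM, and Smad6 at 6.36 and 17.1 CPM. All 4 encode regulators of transcription or signalling that BMPs are known to induce in some tissues. Within classes, 8 of 9 targets compared were higher in adult pericyte codes, 5 of 10 in fibroblast codes, 5 of 9 in osteolineage codes, 4 of 10 in chondrocyte codes, 4 of 9 in endothelial codes and 3 of 4 in muscle codes. Of all genes compared in these classes, 15.4%, 16.6%, 13.5%, 15.4%, 19.5% and 14.0% were higher, in the same order. Between earlier stages fewer of the pathway genes passed 2-fold, with 3 higher and 2 lower of 42 from E16.5 to E18.5 and 4 higher and 1 lower of 42 from E18.5 to P0, against 8.41% and 5.91% of all genes in either direction.

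In HPs the receptor Bmpr2 was the member with the most UMIs, Bmpr1a came mostly from E16.5, and the antagonists were close to absent. Bmpr2 was at 56.8 and 28.4 CPM in E16.5 HP replicates 1 and 2 and at 22.7, 17.7 and 9.14 CPM in the E18.5, P0 and adult libraries. Bmpr1a was at 8.01 and 8.26 CPM in the E16.5 replicates and at 0.925, 0.494 and 0.388 CPM in the later libraries. Each E16.5 library was above every later library for both genes, and for Bmpr2 the E16.5 replicates themselves differed. Without shared-barcode cells, E16.5 HP replicate 1 was at 64.3 CPM of Bmpr2 and 10.1 CPM of Bmpr1a, E18.5 HPs at 25.7 and 1.17 CPM and adult HPs at 8.88 and 0.363 CPM. Grem1, Nog and Chrdl1 had 0 to 10 UMIs in each HP library. Bmpr1b and Bmp6 also stayed near 0, with at most 0.0154 and 0.0308 CPM.

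The ligand levels in HPs were low and uneven between replicates. Bmp2 was at 2.58 and 0.762 CPM in the E16.5 replicates and at 1.20, 0.243 and 0.0507 CPM in the later libraries. Bmp4 was at 0.286 and 0.0939 CPM, then 1.73, 0.439 and 0.0338 CPM, with its highest level at E18.5, and Bmp7 was at 0.215 and 0.856 CPM, then 0.231, 0.126 and 0.0676 CPM. The values of Bmp2 and Bmp7 in the E16.5 pair enclosed the E18.5 value. Without shared-barcode cells, E16.5 HP replicate 1 was at 5.07 CPM of Bmp2 (15 UMIs), 0.676 CPM of Bmp4 (2 UMIs) and 0 UMIs of Bmp7, and adult HPs were at 0.0173 CPM of Bmp2 and of Bmp4 (1 UMI each) and 0.0691 CPM of Bmp7. In E18.5 HPs the levels were then 1.59 CPM of Bmp2, 2.32 CPM of Bmp4 and 0.272 CPM of Bmp7.

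Each later HP library was compared with E16.5 by the quasi-likelihood test of edgeR over 16114 genes, of which 6 were members. The fit has 1 residual degree of freedom, from the E16.5 pair, and assumes that the single libraries of the later stages vary like that pair. The pair differed in cell make-up, with the T or NK marker list at 154 and 3484 CPM in replicates 1 and 2. The code Mono/Mast held 161 of 560 and 142 of 4752 cells. The fit called 0 of 6 members at E18.5, where it called 0.00621% of genes. At P0 it called 0 of 6, against 0.292% of genes, and in the adult 0 of 6, against 2.35%. At an unadjusted p under 0.05 the counts were 2, 1 and 3 members, where 1047, 1368 and 2462 of all genes tested reached it, and DESeq2 called 1, 1 and 3 of the 5 members it tested, against 2.47%, 3.95% and 7.96% of genes. Bmpr1a had log2 differences of -3.23 (SE 0.81), -4.04 (SE 0.84) and -4.21 (SE 0.86) for the E18.5, P0 and adult libraries. The edgeR adjusted p was 0.308, 0.146 and 0.0621. This test gives no SE, and each SE here is the size of the log2 difference divided by the square root of its F statistic. DESeq2 gave adjusted p of 0.00286, 2.43e-05 and 1.15e-05 for the same contrasts, and edgeR with no filter on low counts gave 0.0345, 0.00329 and 0.00108, so the call on Bmpr1a depends on the tool and on the filter. Without the cells whose barcode occurs in more than 1 library, edgeR gave Bmpr1a -3.05, -4.19 and -4.43 with adjusted p of 0.409, 0.0696 and 0.0252.

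Bmpr2 had a log2 difference of -2.02 in the adult, with an edgeR adjusted p of 0.165, and Bmp2 one of -4.75, with an adjusted p of 0.172. DESeq2 gave adjusted p of 0.0170 for Bmpr2 and 0.0232 for Bmp2, edgeR with no filter on low counts gave 0.0120 and 0.0157, and edgeR without shared-barcode cells gave 0.145 and 0.0268. Both calls therefore depend on the tool and the filter, and that on Bmp2 also on the cells. Without E16.5 replicate 1 the Bmp2 difference was -3.37. The summed level of the mast cell marker list was 35815 and 26168 CPM in the E16.5 HP replicates and 1469, 1231 and 274 CPM in the later libraries. Like Bmpr1a and Bmpr2, it was higher in both E16.5 replicates than later. Other lists also differed, with T or NK at 154 and 3484 CPM, then 250, 233 and 314 CPM. The monocyte or macrophage list was at 1986 and 218 CPM, then 1077, 318 and 757 CPM. The part of these lists in the levels of Bmpr1a and Bmpr2 was not tested. Of the 43 other pathway genes, 28 could be tested and edgeR called 0 in each contrast, with 5, 6 and 3 at an unadjusted p under 0.05. Of all 16114 genes tested, 1047, 1368 and 2462 reached it. By size alone, 3 of 5 members compared were past 2-fold between E16.5 and E18.5, against 23.3% of 14572 genes, and the E16.5 replicates differed from each other by 2-fold in 3 of 4 members, against 21.5% of 12956 genes. Between E18.5 and P0, and between P0 and the adult, 2 of 4 members compared were lower by 2-fold, Bmp2 and Bmp4 each time, against 6.36% and 12.1% of genes that were lower and 8.49% and 20.7% in either direction.

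Within HP codes, Bmpr1a at E16.5 was highest in the mast and monocyte codes and in 2 of the 6 codes that the authors named TCell. Of these, TCell5 scored highest for the blood cell marker list in replicate 2, with Xcl1, Klrc1 and Klrc2 as its leading genes. In that replicate 8 of 16 codes, Mono/Mast included, had intervals that reached that of Mono/Mast, the highest. In E16.5 HP replicate 2 it ran from 0.438 CPM in Bcell1 to 16.5 CPM (12.6 to 21.2) in Mono/Mast, with 13.0, 13.4 and 14.3 CPM in Mast1, Mast2i and Mast2ii, 16.0 CPM in TCell5, 12.0 CPM in TCell6 and 5.30 CPM (3.09 to 8.49) in HSPC1, a code whose best-scoring marker list was that of dendritic cells. At E18.5 it was at 0.299 CPM in HSPC2 and 2.38 CPM in Mast3, and at P0 at 0.765 CPM in Mast3. The level in Mast3 was therefore below that of the E16.5 mast codes. Mast4 at P0 was at 15.8 CPM (3.26 to 46.2) and Mast4ii in the adult at 17.7 CPM (2.14 to 63.9), but from 3 and 2 UMIs. Of their cells, 76.3% and 81.7% carried a shared barcode, so no mast level can be drawn from them. The values of Mono2, 19.9 CPM at E18.5 and 10.1 CPM at P0, were higher than in Mast3 of the same stage but rest on 14 and 18 UMIs, and in the adult 17 of the 23 Bmpr1a UMIs were in Neu3.

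Bmpr2 was present in every code that the authors named HSPC and that held at least 50 cells, at 19.7 CPM in HSPC1 at E16.5 (replicate 2), 28.5 CPM in HSPC2 at E18.5, 26.4, 20.2 and 15.7 CPM in HSPC2, HSPC3 and HSPC4 at P0 and 21.3 CPM in HSPC5 in the adult. By marker lists HSPC1 scored highest for dendritic cells and HSPC4 for neutrophils, with Mpo and Elane among its leading genes, while the others scored highest for the stem and progenitor list. The mast codes were higher, with Mast1 at 81.9 and 72.1 CPM in the E16.5 replicates, Mast3 at 59.5 CPM at E18.5 and Mast3 at 67.6 CPM at P0. Without shared-barcode cells these 4 values were 85.3, 72.2, 59.2 and 68.7 CPM. High Bmpr2 was not particular to mast codes. The highest codes at E18.5 were Mono2 at 89.7 CPM (68.9 to 115, from 63 UMIs) and Mono1iii at 71.6 CPM (47.2 to 104). In E16.5 HP replicate 1, Mono/Mast was at 63.2 CPM (55.5 to 71.6), with an interval that overlapped that of Mast1. The adult codes Mast4i and Mast4ii, of whose cells 96.5% and 81.7% carried a shared barcode, had Bmpr2 at 46.7 and 53.1 CPM, and their unshared cells held 0 UMIs of it. No mast level for the adult can be drawn from them.

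Bmp4 in E18.5 HPs was mainly a signal of Bas1, a code with the basophil genes Mcpt8 and Prss34, at 43.5 CPM (34.5 to 54.0). Bas1 held 81 UMIs of Bmp4 in 43 of 274 cells, 72.3% of the library's, and without shared-barcode cells it was at 44.1 CPM. Thinned to 1000 UMIs, 4.40% of Bas1 cells (2.29% to 7.55%) had a Bmp4 UMI, 15.7% unthinned, against 0 of 388 cells of HSPC2, which allows up to 0.773%, at medians of 6565.5 and 25053.5 UMIs. At P0 the Eos/Bas3 code had Bmp4 at 14.7 CPM from 10 UMIs in 8 cells, and the highest code, TCell5 at 26.9 CPM, owed its 20 UMIs to 1 cell. Col1a1, a fibroblast marker, was at 0.5367 CPM in Bas1.

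Bmp2 at E16.5 was at 8.28 CPM (5.67 to 11.7) and 9.18 CPM (6.36 to 12.8) in Mono/Mast of replicates 1 and 2, and the highest code of replicate 2 was the unnamed UD1 at 22.0 CPM (12.8 to 35.2) from 17 UMIs. In E18.5 HPs the code Mono1ii was at 20.3 CPM of Bmp2 from 36 UMIs, of which 16 were in 1 cell. Bmp7 in E16.5 HP replicate 2 was highest in 2 codes that the authors named TCell. TCell5 was at 5.21 CPM and TCell6 at 4.59 CPM, from 14 and 21 of the library's 82 UMIs, and TCell2 held 0. Of 16 codes, 7, TCell5 included, had intervals that reached that of TCell5.

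**Figure D5:**
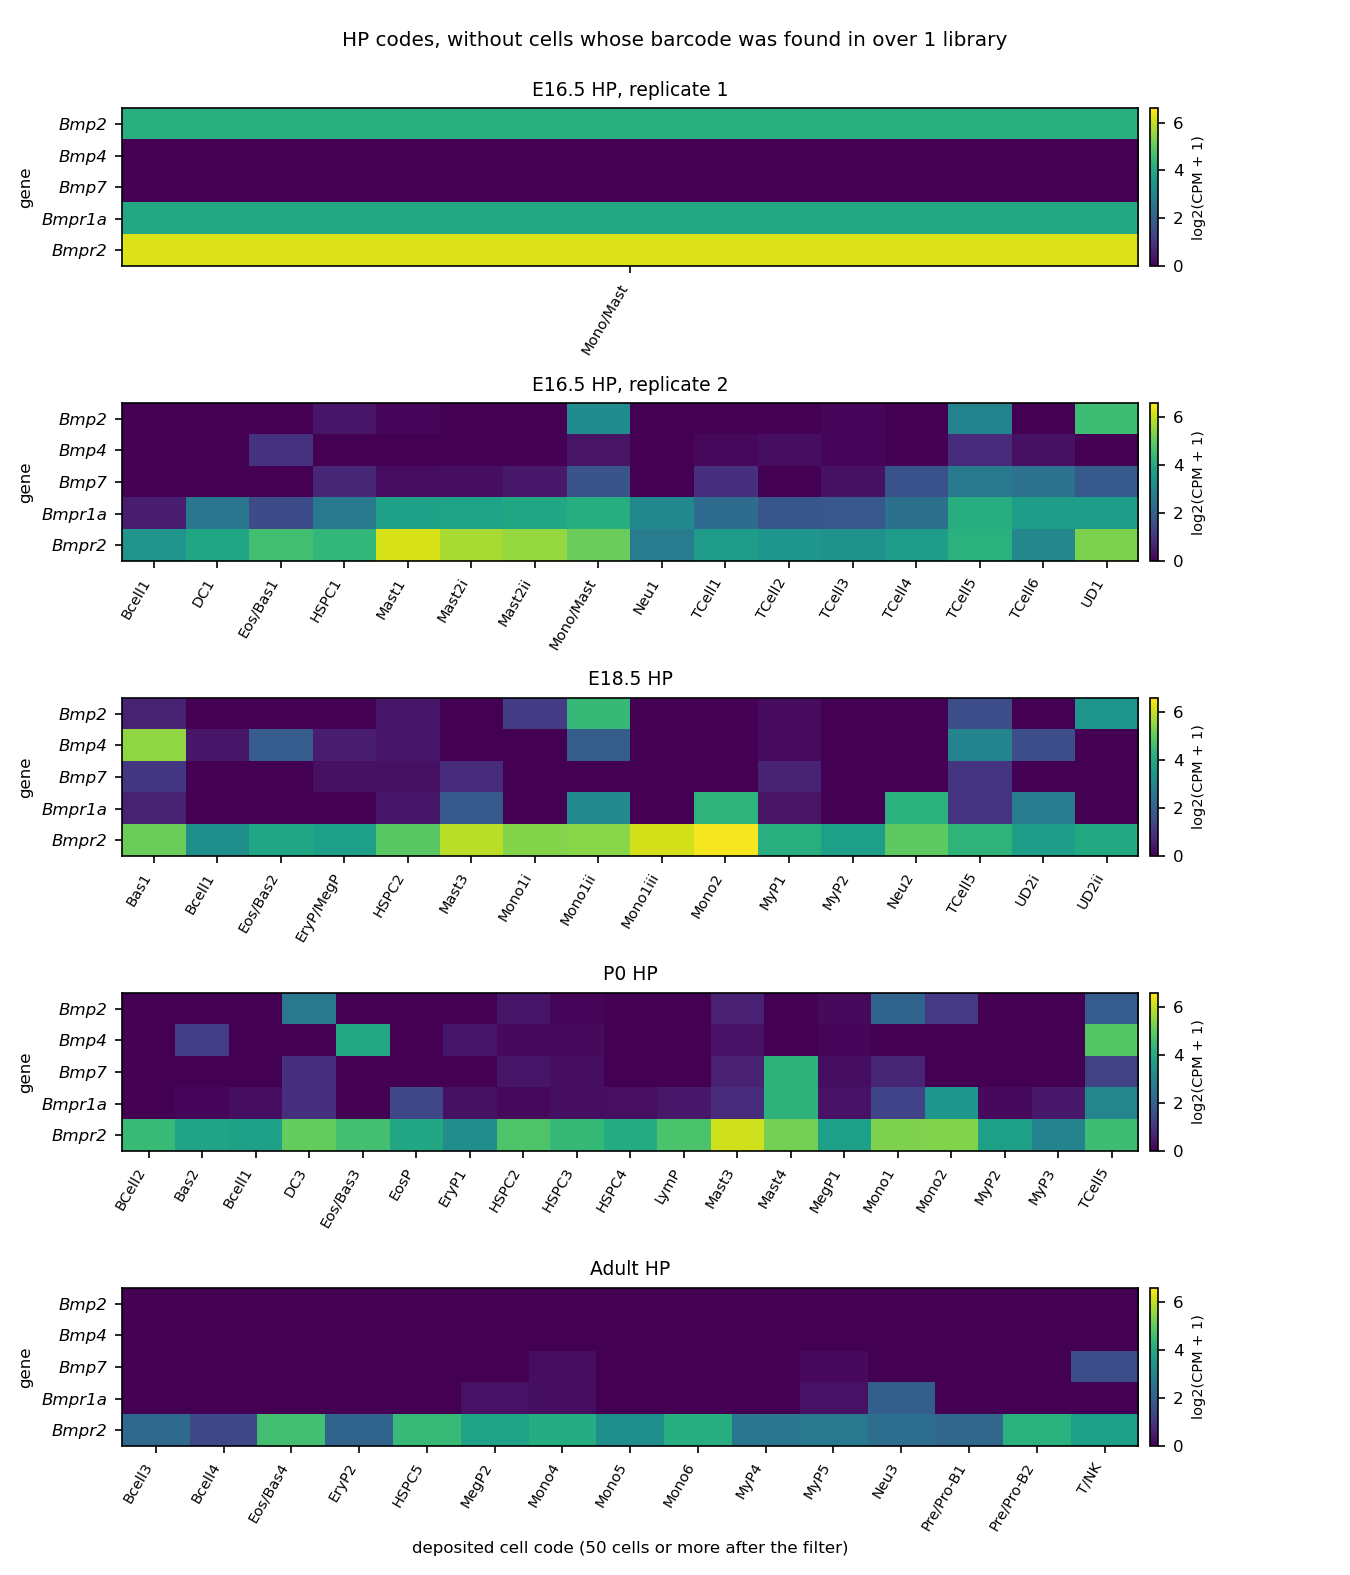
Heat maps of log2(CPM + 1) of 5 of the genes in HP codes of at least 50 cells in each library, computed without cells whose barcode occurs in more than 1 library. Bmpr1a is spread over the E16.5 codes and low in most later codes, Bmpr2 is found in codes of every stage, and Bmp4 has its highest value in Bas1 at E18.5.

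Across the 65 stromal codes of all stages, the genes whose log2(CPM + 1) followed a member most closely were read among 5411 genes with sufficient levels. These correlations are across clusters that share libraries and depth and are given as a description. Bmpr2 went with Snrk, Xiap and Ece1 (r of 0.85, 0.85 and 0.84), Bmp7 with Arsi, Col27a1 and Slc35e3 (0.86, 0.79 and 0.78), Bmp2 with Tns2, Klf2 and Thbs1 (0.82, 0.81 and 0.80), and Bmp4 with Plpp3, Wipf1 and Ctsl (0.78, 0.76 and 0.74). Bmp6 went with Tor1aip1, Clic4 and Tcp11l2 (0.71, 0.70 and 0.69), Bmpr1a with Arhgef25 and Rab34 (0.72 and 0.71), and Bmpr1b with Meg3, Mirg and Kcnk1 (0.65, 0.64 and 0.64). Chrdl1 had Socs1, Pth1r and Runx2 as its nearest genes (0.74, 0.74 and 0.72), Nog had Fgfr3, Col27a1 and Foxa3 (0.73, 0.70 and 0.69), and Grem1 had Smo, Csad and Slc38a2 (0.65, 0.63 and 0.60). Among the members themselves, Bmp7 and Nog were the most alike pair (r of 0.63), followed by Bmp7 with Chrdl1 (0.57) and Nog with Chrdl1 (0.53), and Bmp7 and Bmpr2 were the least alike (-0.50).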

How the data were processed

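Single-cell mRNA libraries (9, from 10x droplets) were analysed. The authors aligned reads to mm10 with CellRanger 3.1.0, clustered and annotated cells with Seurat 3.1.5, and deposited a matrix of unnormalized UMI counts and a table of cluster codes. No doublet caller was run here. Each library pooled several mice. The members and all lists were chosen with earlier results of these data known. Named genes were the members, the pathway list, markers used to check codes and the 3 nearest genes by correlation, of which 1 for Bmpr1a is not reported here. UMIs were summed per library, code (at least 50 cells) or class and scaled to CPM. A code's class was the fixed marker list with its highest mean log2 level above the codes of its library, a rule chosen after seeing the data. Exact Poisson and Clopper-Pearson 95% intervals and floors of 3 counts cover counting error only. HP libraries were tested with edgeR 4.0.16 (quasi-likelihood, TMM, filterByExpr, Benjamini-Hochberg over all genes tested), checked on simulated counts, with DESeq2 1.42.0 as an alternative (R 4.3.3). Other steps used Python 3.11.15 (pandas 2.3.3, numpy 2.4.6, scipy 1.17.1, matplotlib 3.10.9). The 2 HP libraries of E16.5 are labelled as replicates, and nothing says that they came from separate mice. The p-values may therefore measure technical spread and the difference in cell make-up of this pair. Antibody counts and the authors' integrated values were not used.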

Additional observations from a re-analysis of the deposited data

Results flagged for a closer look

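The adult to P0 ratio of a gene passed 2-fold in opposite directions in different classes of stromal codes for 5 of the 10 genes, and for Nog only by the floor of 3 UMIs, since the exact upper limit of 4.74 CPM in adult muscle would not reach 2-fold against 8.61 CPM at P0. Each of these differences was not tested because a stage has 1 library. The log2 ratio of Bmp2 was -1.37 in chondrocyte codes and 1.21 in skeletal muscle codes. For Bmp4 it was -1.05 in chondrocyte codes and 1.47 in endothelial codes, and for Bmp6 it was -1.05 in chondrocyte codes and 2.33 in skeletal muscle codes. Bmp7 was the reverse case among the ligands, with -1.29 in fibroblast codes and 1.48 in chondrocyte codes. For Grem1 it was -2.15 in osteolineage codes and 3.75 in endothelial codes, the latter resting on 12 SECs, and for Nog -1.16 in skeletal muscle codes, a bound from 0 adult UMIs, and 2.59 in pericyte and smooth muscle codes.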

How the results depend on the processing

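No paired analysis was possible because only E16.5 has more than 1 HP library and the stromal libraries are single. Of 103 recomputed counts of members, 88 stayed within 1.5 times the main count and 15 moved. Of 645 recomputed stage ratios 490 stayed, 153 moved, and 2 that were past 2-fold in the main setting turned direction. Ratios short of 2-fold that turned direction are counted among those that stayed or moved. Of 200 highest-code levels, 16 moved. With 3-fold in place of 2-fold, or with class means, the count between E18.5 and P0 stroma went from 1 to 0, and with 3-fold the counts between P0 and the adult were 4 in chondrocyte codes (8 at 2-fold), 0 in fibroblast codes (3), 1 in endothelial codes (4) and 2 in skeletal muscle codes (6). With means over cells, osteolineage codes gave 4 (2 with summed UMIs) and adult against P0 HPs gave 0 (2). edgeR called 0 members in each HP contrast, against 1, 1 and 3 with no filter on low counts, 1, 1 and 3 with DESeq2, and 2 in the adult without shared-barcode cells, an alternative chosen after seeing the data. The genes called at E18.5, P0 and in the adult were 1, 47 and 378 in the main fit, 35, 78 and 425 with RLE scaling, 485, 713 and 1515 with no filter, 352, 563 and 1164 with DESeq2, and 106, 248 and 748 without shared-barcode cells. Values that turned direction included Grem1 in adult over P0 stroma without CARs and F9 (-0.77, also chosen after seeing the data). Bmp7 in E18.5 over E16.5 HPs turned when 1 E16.5 replicate was left out (-1.89 without replicate 1 and 0.11 without replicate 2 as a log2 ratio of levels, -1.93 and 0.063 after TMM scaling). Bmp2 turned in the same contrast (0.50 without replicate 1 and -1.11 without replicate 2). Nog, with 0 to 10 UMIs per HP library, also turned, at P0 from -0.29 to 1.62 without replicate 2 and in the adult from 0.31 to -0.18 without replicate 1. The cause was not tested. Another code was highest in 9 of these 200 cases, and with codes of at least 100 cells Bmpr2 was highest in F2 at E16.5 (75.7 CPM) and F3i at E18.5 (85.7 CPM), as ECs then drop out, and with cells of at least 1000 UMIs it was highest in UD2 at P0 (186 CPM). Shares of cells with a UMI moved with the thinning depth in 75 of 80 cases. In HPs, depth limits Bmp6, Bmpr1b, Grem1, Nog and Chrdl1, which had 0 to 10 UMIs per library.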
